A study of Mus musculus with 6 samples.

Results

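The 10 genes of fatty acid synthesis, desaturation and elongation Acly, Acaca, Fasn, Scd1, Scd2, Elovl1, Elovl5, Elovl6, Fads1 and Fads2 were followed in megakaryocyte-erythroid progenitors of mice fasted for 6 h. They were chosen by name and were all found among the 55487 genes of the count table. The cells were sorted from the marrow of wild type C57BL/6 mice aged 8 weeks, in 3 libraries labelled control and 3 labelled 6h fasted. Both groups had the same strain, genotype and age in the labels, which name no sex, batch, pooling of animals or feeding of the controls. The study asked how fasting acts on erythropoiesis. The labels do not say that replicates came from separate mice, so the spread between libraries may be partly technical.

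Fatty acids are built in the cytosol from citrate. ATP citrate lyase (Acly) splits it to acetyl-CoA, acetyl-CoA carboxylase (Acaca) makes malonyl-CoA, and fatty acid synthase (Fasn) joins the units into palmitate. Stearoyl-CoA desaturases (Scd1, Scd2) put the first double bond into saturated chains, elongases (Elovl) lengthen chains, and the front-end desaturases Fads2 and Fads1 act in turn on polyunsaturated chains. In liver and fat this pathway is switched on by feeding through insulin and the sterol regulatory element binding protein SREBP-1c (Srebf1), and Scd1 is the main liver form. Scd2 is best known from brain.

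Scd2 stood apart from the other genes. Its mean level in control libraries was 2.71 times that in fasted libraries, with the second smallest p of all genes tested, although it did not pass correction in the main comparison. The elongase genes Elovl5, Elovl6 and Elovl1 and the citrate lyase gene Acly had smaller differences in the same direction, Fasn less still, and Fads1 and Fads2 had small positive differences. Scd1 was hardly above the background of the libraries.

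Scd1 and Scd2 are near neighbours on chromosome 19 (GRCm38 with GENCODE M21 positions). Scd1 (ENSMUSG00000037071.3) spans chr19:44394455-44407879 on the minus strand and Scd2 (ENSMUSG00000025203.6) spans chr19:44293674-44306864 on the plus strand. Their coding sequences in GENCODE M21 were identical at 965 of 1068 aligned positions (90.4%), so the distinctness of their counts matters to the result. Of the 50-base windows of the Scd2 transcript, 2.68% also occurred unchanged in the Scd1 transcript, and of 100-base windows 0.896% did. The least alike 90-base stretch of the coding sequence lies at chr19:44406617-44406706 (minus strand) in Scd1 and at chr19:44294967-44295056 (plus strand) in Scd2. Capitals mark the 29 positions at which the genes differ there.
Scd1: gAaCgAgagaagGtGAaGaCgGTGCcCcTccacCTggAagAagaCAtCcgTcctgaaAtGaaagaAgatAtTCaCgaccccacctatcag
Scd2: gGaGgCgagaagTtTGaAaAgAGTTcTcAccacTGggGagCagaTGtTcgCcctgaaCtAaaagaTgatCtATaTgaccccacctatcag
A 90-base stretch with 0 differences lies at chr19:44401716-44401805 (minus strand) in Scd1 and chr19:44299702-44299791 (plus strand) in Scd2. A read that lies wholly within this stretch is the same for either gene. It is not the longest identical stretch, since some 100-base windows were shared too.
Scd1 and Scd2: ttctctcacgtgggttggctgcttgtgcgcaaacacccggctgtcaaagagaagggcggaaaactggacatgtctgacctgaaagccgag

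Libraries held 22445970 to 30246110 gene counts in the control group and 12797144 to 18225191 in the fasted group. Odorant and vomeronasal receptor genes, silent in blood cells, gave a background of 8.98 to 14.7 counts per kilobase of exon in control and 14.2 to 16.0 in fasted libraries. Spread over all exons, this rate came to 3.90 to 8.58% of the counts in control and 11.5 to 14.6% in fasted libraries, so the groups differed in it. The main comparison therefore used the 10648 genes whose mean count was at least 5 times the background for their length. This filter was chosen with earlier results of these data known. The test was the quasi-likelihood test of edgeR, scaled by TMM factors from those same genes, with p-values adjusted by Benjamini-Hochberg. Levels are CPM, counts of a gene relative to the scaled sum over those genes. Markers of the labelled cell type were present: 9 of 10 reached 5 times the background, with summed levels of 1449 to 2890 CPM in control and 1746 to 2312 CPM in fasted libraries. All 12 granulocyte and monocyte markers also reached it, at 3769 to 19070 CPM in control and 1975 to 4718 CPM in fasted libraries, and all 12 had negative log2 fold changes (median -2.06). In bulk RNA, fewer cells of a type and less RNA per cell cannot be told apart.

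**Figure D1:**
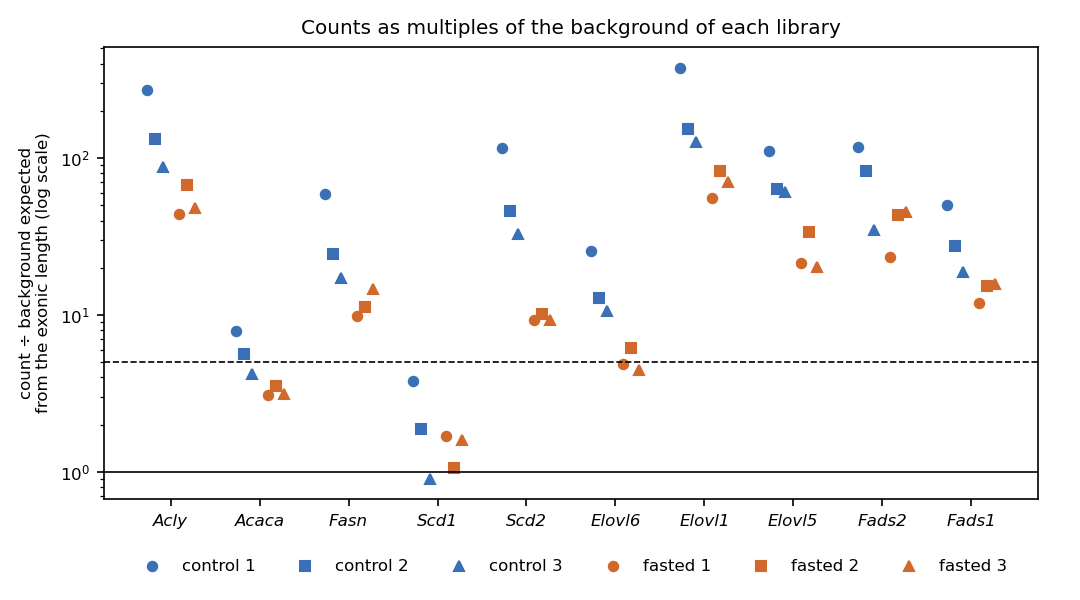
Count of each gene divided by the count that the background rate of its library predicts from its exonic length (log scale), for 3 control (blue) and 3 fasted (orange) libraries. The solid line marks the background itself and the dashed line the minimum of 5 times, which Scd1 and Acaca did not reach as means over the 6 libraries.

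Of the 10 genes, 8 reached this minimum, with means from 9.64 times the background (Elovl6) to 127 times (Elovl1). Acaca lay just outside, at 4.32 times, and Scd1 at 1.67 times. Per kilobase of exon, Elovl1 had the highest control level, 100.1 CPM ± 18.6 (SD, n = 3). Acly followed with 75.1 CPM ± 10.7 per kilobase, which overlapped the spread of Elovl1. Elovl5 (38.7 ± 5.61), Fads2 (36.4 ± 10.1) and Scd2 (29.0 ± 6.96) came next, each with a spread that overlapped those of the other two. Fasn (15.1 ± 3.38) and Fads1 (15.1 ± 1.03) were level with each other, Elovl6 (7.74 ± 0.55) and Acaca (2.93 ± 0.36) were lower, and Scd1 (0.98 ± 0.28) was lowest. The exonic lengths join the exons of all transcripts of a gene, so a gene with many alternative exons, such as Acaca with 17074 bases, reads low on this scale.

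Among the desaturases, Scd2 had 202, 140 and 133 CPM in control libraries 1, 2 and 3 and 62.4, 56.1 and 56.7 CPM in fasted libraries 1, 2 and 3. The groups did not overlap, and the lowest control library was above the highest fasted library by more than the whole range of the fasted group. The means were 158 CPM ± 38.0 in control and 58.4 CPM ± 3.45 in fasted libraries (SD, n = 3 each). Fasted over control, this was a log2 fold change of -1.44 (SE 0.18, 95% interval -1.84 to -1.04), with an edgeR adjusted p of 0.0900 against a threshold of 0.05. Only 0.216% of the 10648 genes had a lower log2 fold change, and 1 gene, the haem enzyme gene Alas1, had a smaller p. Beside the background, Scd2 stood at 32.8 to 115 times in control and 9.25 to 10.1 times in fasted libraries. With the background subtracted from every count the log2 fold change was -1.48 (edgeR adjusted p 0.134). A microRNA, Mir5114, lies in 61 of its exonic bases on the same strand.

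No gene passed in the main comparison, which called 0 of 10648 (0%) at an adjusted p under 0.05, and so 0 of the 8 tested members. At an unadjusted p under 0.05, 2115 genes passed, and limma-voom called 0. DESeq2 on the same genes called 501, of which Scd2 was the only member (log2 fold change -1.46, DESeq2 adjusted p 1.86e-08). At an adjusted p under 0.1, edgeR called 2 genes, Alas1 and Scd2. The edgeR call of Scd2 changed with single libraries. It passed without control library 1 (log2 fold change -1.22, adjusted p 0.0165) and without control library 3 (-1.57, adjusted p 0.0411), and the adjusted p was 0.218 to 0.347 without any 1 of the other 4. It also passed when the minimum was 3 times the background (-1.57, edgeR adjusted p 0.0159).

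**Figure D2:**
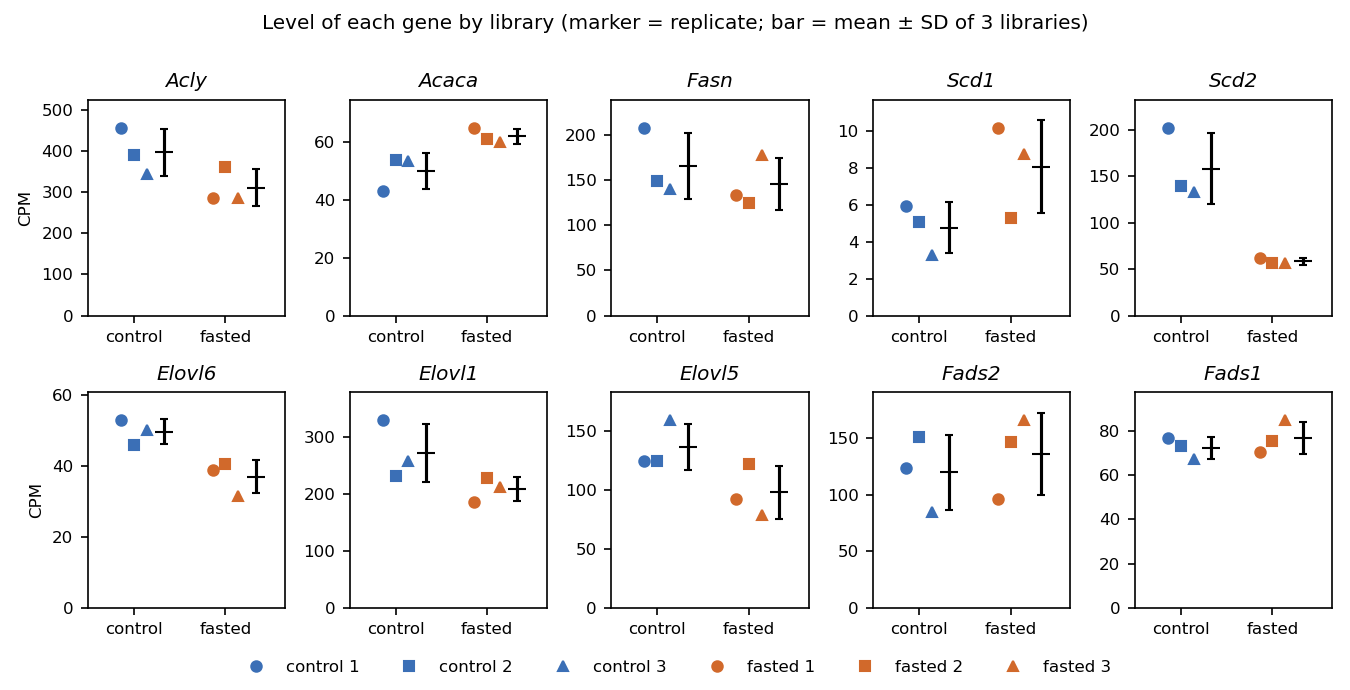
Level of each of the 10 genes in CPM (vertical axis from 0, a different range in each panel) by library. The marker shape gives the replicate number and the bar the mean ± SD of 3 libraries. Scd2 is between 133 and 202 CPM in control and between 56.1 and 62.4 CPM in fasted libraries, and the other panels show smaller separations or overlap.

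Scd1 had 167, 120 and 65 counts in controls 1, 2 and 3, against 117, 83 and 116 counts in the fasted libraries. These were 3.80, 1.87 and 0.91 times the background in control and 1.68, 1.06 and 1.60 times in fasted libraries. After subtraction of the background, its level was between -0.34 and 4.39 CPM in control and between 0.30 and 4.12 CPM in fasted libraries, so the groups overlapped. A difference in Scd1 was not detectable above the background at this depth. Scd3, another desaturase of the same cluster, stood at 3.16 times the background and Scd4 at 1.84 times, so of the stearoyl-CoA desaturase genes Scd2 alone reached 5 times.

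A ratio taken within a library does not depend on the scaling between libraries. The log2 ratio of Scd1 to Scd2 counts was -5.08, -4.78 and -5.33 in the controls, against -2.61, -3.40 and -2.69 after fasting. The difference was 2.16, without overlap. Its exact permutation p (two-sided) was 0.1, below which no split of 3 against 3 can go, and adjusted over the 6 ratios compared it was 0.3. With the background subtracted the groups overlapped, with a mean difference of 2.94 and an exact permutation p of 0.3. Scd1 in control library 3 lay below the background, so its subtracted ratio rests on the 0.5 added to counts. In fasted library 2, subtracted Scd1 was only 0.30 CPM. The value of 2.94 leans on control library 3 and does not show a larger difference than before subtraction. Set against the mean log2 CPM of the other 7 tested members, Scd2 stood at 0.40, 0.04 and 0.06 in controls 1, 2 and 3 and at -0.79, -1.19 and -1.09 in the fasted libraries. The mean difference of -1.19 on the log2 scale is a description with no test.

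Markers of other cells are given beside Scd2, and their directions differed. The granulocyte and monocyte sum was 3769, 12590 and 19070 CPM in controls 1, 2 and 3, against 4718, 3241 and 1975 CPM after fasting. The sum of 5 mast cell and basophil markers was 221, 114 and 175 CPM in the controls, against 119.8, 81.4 and 58.1 CPM after fasting. Both sums were lower in most fasted libraries, and in each the ranges of the groups overlapped. Of the 4 mast cell and basophil markers that reached 5 times the background, 3 were lower at an unadjusted edgeR p under 0.05. Of all 10648 genes, 8.30% were. Of the same 4, 1 had a positive log2 fold change, and their median was -0.99. Cpa3 and Mcpt8 were singled out after their values were seen. The mast cell protease gene Cpa3 (-1.15, edgeR adjusted p 0.193) and the basophil protease gene Mcpt8 (-1.26, edgeR adjusted p 0.170) did not overlap between the groups. Every fasted library was also below every control library for 13.0% of the 10648 genes. Of 6 B cell markers 4 reached 5 times the background, and all 6 summed to 64.0 to 110 CPM in control and 88.0 to 200 CPM in fasted libraries. Of 4 T cell markers 1 did, and all 4 summed to 24.1 to 28.3 and 37.0 to 50.8 CPM. Sums here are over all markers of a list, also those below the minimum, and background was a larger share of the fasted libraries. The part of these cells in the Scd2 difference was not tested. None of the 7 adipocyte markers reached 5 times the background: they stood at 0.31 to 2.69 times, with sums of 16.8 to 23.7 CPM in control and 38.3 to 59.7 CPM in fasted libraries, and Cfd was at 0 counts in 2 libraries. Of the 4 hepatocyte markers only Alb, at 6.08 times, reached it (sums of 8.98 to 21.4 and 21.2 to 31.6 CPM), and of 4 stromal markers 0 did (27.6 to 38.5 and 48.2 to 95.9 CPM).

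**Figure D3:**
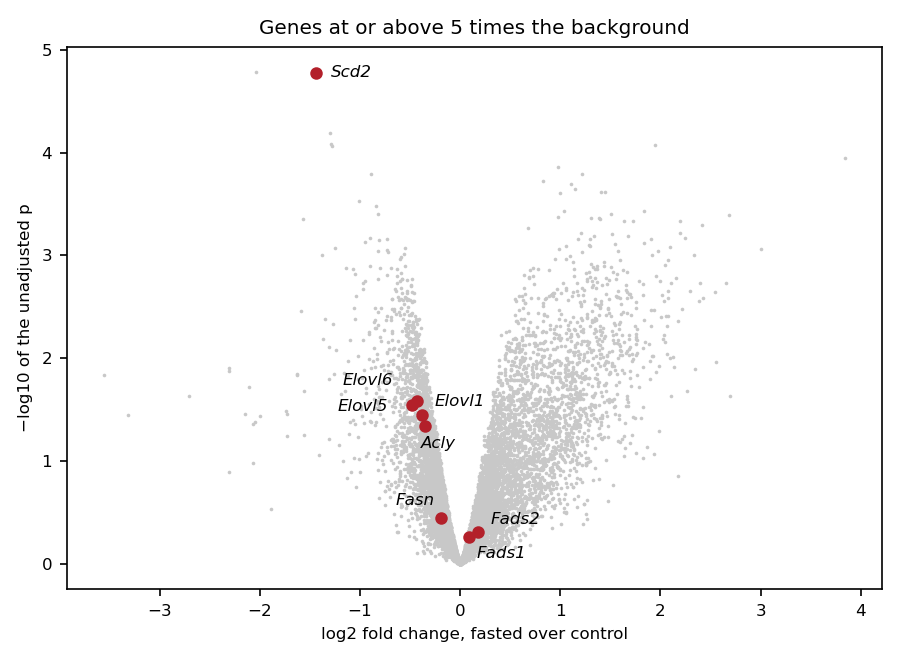
Log2 fold change of fasted over control against −log10 of the unadjusted edgeR p for the 10648 genes of the main comparison (grey), with the 8 tested members in red. Scd2 is near the top at a log2 fold change of -1.44, Elovl5, Elovl6, Elovl1 and Acly lie together between -0.48 and -0.35, and Fasn, Fads1 and Fads2 lie near the base.

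The elongases form a second set. Elovl6, which extends palmitate to stearate, had 53.0, 46.0 and 50.3 CPM in control and 38.9, 40.5 and 31.7 CPM in fasted libraries 1, 2 and 3. As with Scd2, its groups did not overlap under any of the 6 scalings tried. This gave a log2 fold change of -0.43 (SE 0.16, 95% interval -0.79 to -0.063), edgeR adjusted p 0.204. Fasted libraries were close to the minimum for this gene, at 4.43 to 6.17 times the background, and 34 of its exonic bases are shared with Gm35986 on the other strand.

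Elovl5, the elongase of polyunsaturated chains, had 124.9, 124.9 and 159 CPM in control and 92.7, 122 and 78.9 CPM in fasted libraries. Its log2 fold change of -0.48 (SE 0.18) had an edgeR adjusted p of 0.209. Fasted library 2 lay just below controls 1 and 2, and under upper-quartile scaling the groups overlapped. Elovl1, which extends very long saturated chains, had 330, 231 and 257 CPM in control and 186, 228 and 212 CPM in fasted libraries, which came to -0.38 on the log2 scale (SE 0.16, edgeR adjusted p 0.227). Its groups, too, were separated by a narrow gap, between control library 2 and fasted library 2, and overlapped under upper-quartile factors or totals of the same genes. It shares 53 exonic bases with Cdc20 on the other strand, and the strand setting of the counting is not known. The log2 ratio of Elovl6 to Elovl5 was -1.24, -1.44 and -1.66 in the controls, against -1.25, -1.59 and -1.31 after fasting, so this ratio overlapped between the groups (difference 0.06, exact permutation p = 0.8, adjusted 0.9).

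At the entry of the pathway, Acly had 456, 389 and 344 CPM in control and 285, 362 and 285 CPM in fasted libraries. Fasted library 2 lay above control library 3, so the groups overlapped. Acly had a log2 fold change of -0.35 (SE 0.15, 95% interval -0.69 to -0.010), edgeR adjusted p 0.241. Set against Acss2, which makes acetyl-CoA from acetate in place of citrate, the log2 ratio of Acly was 2.64, 2.49 and 2.46 in the controls, against 2.03, 2.45 and 1.96 after fasting. The difference was -0.39 with an exact permutation p of 0.1 (adjusted 0.3), and -0.27 with p = 0.3 once the background was subtracted. Acss2 itself had a log2 fold change of 0.03, edgeR adjusted p 0.907.

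Fasn had 208, 149 and 140 CPM in control and 133, 125 and 178 CPM in fasted libraries, and the groups overlapped. Its log2 fold change of -0.19 (SE 0.19, 95% interval -0.62 to 0.25) had an edgeR adjusted p of 0.602 and became 0.0094 without control library 1, the library with the highest level. Acaca had 42.9, 53.9 and 53.3 CPM in control and 64.8, 61.1 and 59.9 CPM in fasted libraries, so every fasted library was higher before the background was considered. With the background subtracted, it had 37.4, 44.4 and 40.6 CPM in control and 43.7, 43.7 and 40.9 CPM in fasted libraries, which overlap. The log2 ratio of Fasn to Acaca differed by -0.50 (exact permutation p = 0.3, adjusted 0.6). These 3 genes lie on chromosome 11 at some distance from each other: Acaca at chr11:84129672-84401651, Acly at chr11:100476353-100528000 and Fasn at chr11:120805846-120824547.

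The groups overlapped for both front-end desaturases. Fads1 had 76.9, 73.3 and 67.2 CPM in control and 70.4, 75.3 and 84.9 CPM in fasted libraries, a log2 fold change of 0.08 (SE 0.14, 95% interval -0.22 to 0.39) with an edgeR adjusted p of 0.747. Fads2 had 124, 151 and 84.5 CPM in control and 95.9, 147 and 166 CPM in fasted libraries, 0.18 (SE 0.25, 95% interval -0.39 to 0.76), edgeR adjusted p 0.705. Both intervals exclude a value as low as the Scd2 estimate. The direction of both turned in the comparison of all genes described next (-0.45 and -0.35). Their log2 ratio overlapped between the groups (difference -0.10, exact permutation p = 0.7, adjusted 0.9).

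**Figure D4:**
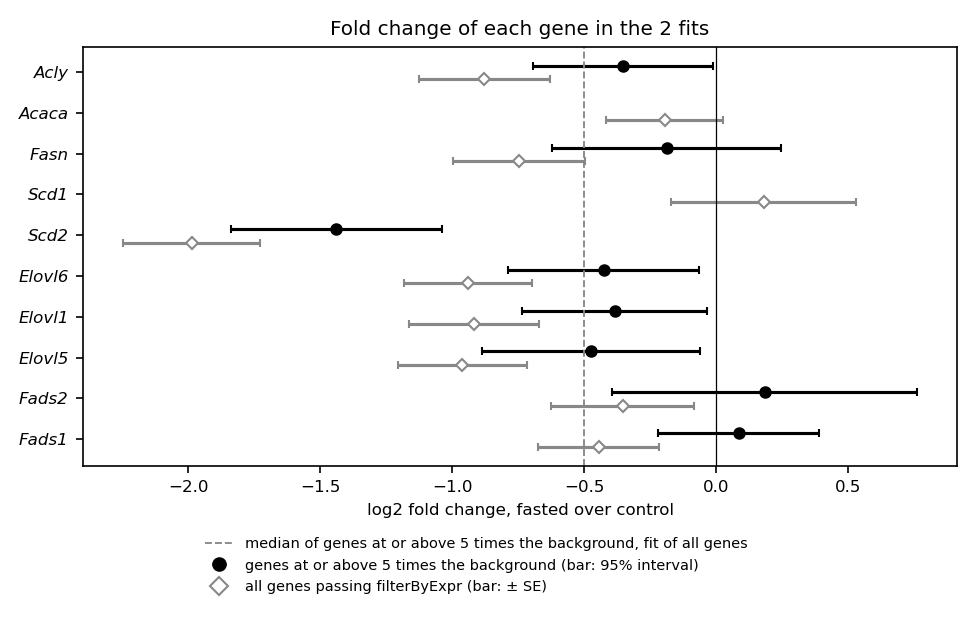
Log2 fold change of each gene, fasted over control, in the main comparison (filled circles, 95% interval) and among all genes that passed the low-count filter (open diamonds, ± SE). The dashed line is the median, in the second comparison, of genes that reached 5 times the background (-0.50). The diamonds run from 0.18 (Scd1) to -1.99 (Scd2), and Scd2 is farthest left in both.

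When all 36508 genes that passed edgeR's low-count filter were scaled and tested together, 1813 genes (4.97%) were called. In that comparison 5 of the 10 members passed as lower in fasted libraries: Scd2 (log2 fold change -1.99, edgeR adjusted p 0.00118), Elovl5 (-0.96, 0.0383), Elovl6 (-0.94, 0.0401), Elovl1 (-0.92, 0.0414) and Acly (-0.88, 0.0458). Of all genes that reached 5 times the background, 12.8% passed as lower there and their median log2 fold change was -0.50, so this scaling moved all of them in 1 direction. All 5 members had values below that median. Their p-values test for any difference, so the distance beyond the shift was not tested. The count of 1813 rested on single libraries: it was 1 without fasted library 3, 148 without fasted library 1, 191 without control library 2 and 5409 without control library 3. Fasn (-0.75, edgeR adjusted p 0.0689), Fads1, Fads2, Acaca (-0.19) and Scd1 (0.18) did not pass. With the same 36508 genes, but the TMM factors of the main comparison, Scd2 alone of the 10 passed (-1.44, edgeR adjusted p 0.00337). Of all 36508 genes, 255 passed as lower there and 4962 as higher.

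Counts of members can be set beside those of all genes. Every fasted library was below every control library for 4 of the 8 tested members, Scd2, Elovl1, Elovl5 and Elovl6, and for 13.0% of the 10648 genes, while 27.4% did not overlap in either direction. Under upper-quartile factors this held for 2 members and 8.75% of genes. At an unadjusted p under 0.05, 5 of the 8 were lower (those 4 and Acly), against 8.30% of all genes. The median log2 fold change of the 8 was -0.37, and that of all genes tested was 0.02, with 52.3% above 0.

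Of 56 other genes around the pathway, 34 reached 5 times the background, none was called in the main comparison (smallest edgeR adjusted p 0.131), and 25 of the 34 had a negative log2 fold change (median -0.21). In the comparison of all genes, where 12.8% of genes that reached 5 times the background passed as lower and their median was -0.50, 12 of the 34 passed as lower and 2 genes below that minimum as higher. With the TMM factors of the main comparison over the same 55 tested pathway genes, 3 passed as lower and 4 as higher. Of all 36508 genes in that fit, 255 passed as lower and 4962 as higher. In the supply of carbon and reducing power, Idh1, the cytosolic enzyme that makes NADPH from isocitrate, had 73.9, 87.8 and 95.9 CPM in control and 42.6, 35.7 and 27.2 CPM in fasted libraries. Its log2 fold change of -1.29 (edgeR adjusted p 0.131) was the fourth smallest p of all genes, and it passed over all genes (-1.78, edgeR adjusted p 0.00118) and under DESeq2 (-1.31, DESeq2 adjusted p 4.5e-06). Mdh1 had -0.34 and passed over all genes (-0.85, edgeR adjusted p 0.0408), while the citrate carrier gene Slc25a1 had -0.19 and passed in neither. For malonyl-CoA, the second carboxylase gene Acacb and the decarboxylase gene Mlycd stood at 2.02 and 4.89 times the background and were not in the main comparison.

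In the elongation cycle all 5 tested genes other than the elongases had negative log2 fold changes, from -0.42 (Hacd2) to -0.28 (Tecr). Hacd2, a dehydratase of the cycle, had 65.3, 61.5 and 66.2 CPM in control and 45.6, 46.8 and 51.6 CPM in fasted libraries (edgeR adjusted p 0.166), without overlap. Hacd2, Hsd17b12 and Tecr passed as lower over all genes, and Hacd3 (-0.32) did not. Among the partners of the desaturases, Cyb5b, a cytochrome b5 of the outer mitochondrial membrane, had 266, 167 and 205 CPM in control and 111, 128 and 104 CPM in fasted libraries (log2 fold change -0.90, edgeR adjusted p 0.131), and it passed over all genes (-1.43, edgeR adjusted p 0.0157). Of the microsomal electron carriers that serve the Scd and Fads enzymes, Cyb5a had -0.10 and the reductase gene Cyb5r3 0.0024. Scd3 passed as higher over all genes (1.07, edgeR adjusted p 0.0484), at a level below 5 times the background.

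**Figure D5:**
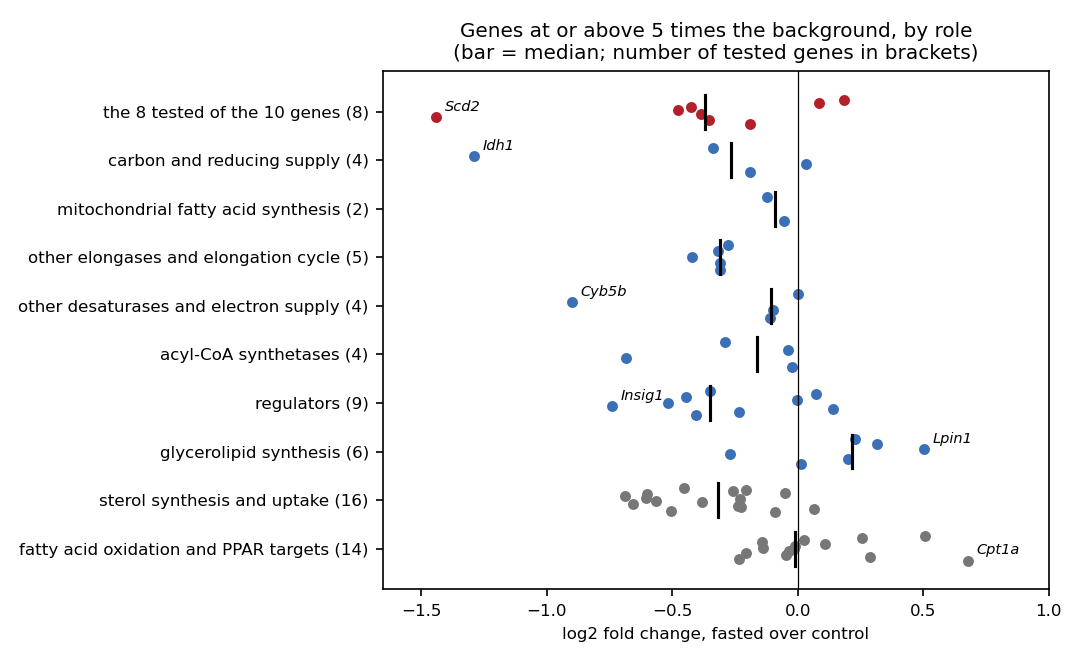
Log2 fold change of fasted over control for the tested members (red), other genes around the pathway by role (blue) and comparison lists (grey). Each point is a gene and each bar a median. The members' median of -0.37 lies beside -0.31 for the elongation cycle, -0.35 for regulators, -0.32 for sterol synthesis and -0.01 for fatty acid oxidation.

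The acyl-CoA synthetases, which activate free fatty acids, had a median of -0.16 over 4 tested genes, and Acsl3 had the lowest value (-0.68, edgeR adjusted p 0.169) and passed over all genes. Acsl5 and Acsl1 had -0.29 and -0.02. In the mitochondrial route of fatty acid synthesis, Mecr had -0.06 and Ndufab1 -0.12. In the making of glycerolipids 5 of 6 tested genes had positive values (median 0.21), with Agpat1 at 0.20, Dgat1 at 0.23 and Lpin1, a phosphatidic acid phosphatase, at 0.50 (edgeR adjusted p 0.240), and none passed in either comparison.

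Among the regulators, Srebf1 had 125, 120 and 82.8 CPM in control and 70.9, 84.9 and 91.7 CPM in fasted libraries, which overlapped (log2 fold change -0.40, edgeR adjusted p 0.258). Srebf2, the factor of sterol synthesis, had -0.23, and the log2 ratio of Srebf1 to Srebf2 did not separate the groups (difference -0.14, exact permutation p = 0.9, adjusted 0.9). Insig1, an SREBP target that retains SREBP in the endoplasmic reticulum, had 52.5, 43.0 and 45.8 CPM in control and 31.1, 32.0 and 21.6 CPM in fasted libraries, without overlap (log2 fold change -0.74, edgeR adjusted p 0.143). Insig2 had -0.52. Scap, the escort of SREBP, and Mbtps1, the protease that cleaves it, had 0.14 and -0.0036. Mlx, the partner of the glucose sensor ChREBP, had -0.44, and the ChREBP gene Mlxipl itself stood at 1.48 times the background. Nr1h2, a liver X receptor, had 0.07, and Mid1ip1, an activator of acetyl-CoA carboxylase, had -0.35. Srebf1, Insig1, Insig2, Mlx and Mid1ip1 passed as lower and Mlxipl as higher over all genes.

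Sterol synthesis and fatty acid oxidation were set beside the members as neighbouring routes. Of 19 sterol synthesis and uptake genes 16 were tested and 15 had negative values, with a median of -0.32 and 6 with every fasted library below every control library (13.0% of all genes). In the comparison of all genes, 8 of these 16 passed as lower, beside 12.8% of genes that reached 5 times the background and their median of -0.50. None of the 16 differed as much as Scd2, the lowest being Msmo1 at -0.69. Of 15 genes of fatty acid oxidation and its regulation 14 were tested, with a median of -0.01. Cpt1a, which admits fatty acids to the mitochondrion, had 58.0, 70.2 and 90.1 CPM in control and 137, 103 and 109.7 CPM in fasted libraries, without overlap (log2 fold change 0.68, edgeR adjusted p 0.148).

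No promoter sequence was held for Scd1, Scd2 or Fads1. Promoter sequences of RefSeq (GRCm38.p6, from 250 bases before to 50 after the start) were held for the other 7 genes, with 8 starts. They were searched on both strands for a sterol regulatory element (TCACNCCAC), an E-box (CACGTG) and a CCAAT box (CCAAT), motifs known from lipogenic promoters. The first was in 0 of the 8 and in 1.24% of all 32851 promoters. The E-box was in 1, that of Elovl5, and in 7.15% of all promoters. CCAAT was in 4, those of Acly, Elovl1, Elovl5 and Fasn, and in 37.4% of all. A match describes letters only, and binding was not measured. The stretches of the elongase promoters around a match are shown with the match in capitals, ATTGG being CCAAT on the other strand, at chr4:118428038-118428082 for Elovl1 and at chr9:77917184-77917229, chr9:77917274-77917318 and chr9:77917328-77917364 for Elovl5, all on the plus strand.
Elovl1: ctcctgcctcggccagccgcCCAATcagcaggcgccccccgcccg
Elovl5, E-box: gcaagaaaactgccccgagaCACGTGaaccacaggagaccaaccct
Elovl5, first CCAAT box: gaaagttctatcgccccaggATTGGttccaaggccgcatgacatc
Elovl5, second CCAAT box: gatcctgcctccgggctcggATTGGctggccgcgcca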

How the data were processed

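Raw counts per gene were deposited by the authors for 6 libraries. The submitters' processing notes name HISAT2 2.2.1, featureCounts 2.0.1 and GRCm38. Annotation release, strand setting and read filters are not given in the sources used here. Per the labels' protocols, oligo(dT)-selected RNA was primed with random hexamers, in a text that describes ground tissue rather than sorted cells. Of 55487 identifiers, 54435 matched GENCODE M21 with version and all 54435 with the same exonic length. The table had 0 rows without a gene.

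The background was the summed count of 1468 protein-coding odorant and vomeronasal receptor genes over their summed length. Genes were kept by filterByExpr (36508) and by a mean count of at least 5 times the background (10648), a filter chosen because the other 25860 genes otherwise set the TMM factors. The quasi-likelihood model of edgeR 4.0.16 (R 4.3.3) had group as its term, with robust dispersions. The SE is the size of the log2 fold change divided by the square root of F. Alternatives included DESeq2 1.42.0, limma-voom (limma 3.58.1), other scalings and filters, the replicate number as a block, and each library left out. Ratios used log2 of counts plus 0.5. The main comparison with its filter, as well as the members and gene lists, were chosen with earlier results of these data known. The 10 members were named, and, from each pathway list, genes called in either comparison, the 2 with the highest CPM per kilobase, and all tested regulators. Hsd17b8 is H2-Ke6 in the table. Alas1, Lpin1, Msmo1, Cpt1a, Cpa3 and Mcpt8 were singled out after their values were seen. The fit was also run on simulated data with a common dispersion of 0.1, and the outcome is not given here. The depth, 12797144 to 30246110 counts, limits the precision of low genes such as Scd1.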

Additional observations from a re-analysis of the deposited data

How the results depend on the processing

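Scd2 kept its direction in all 21 alternatives (log2 fold change -2.03 to -1.22) and passed an adjusted p under 0.05 in 8 of them. The main comparison called 0 genes. At an adjusted p under 0.1 it called 2, of which 1 was a member. All genes passing edgeR's filter gave 1813 calls (4.97% of 36508 tested), with 5 members and 14 of the 56 other pathway genes. With the TMM factors of the main comparison these became 5217 (4962 higher), 1 and 7, and with library totals alone 4523, 1 and 7. A minimum of 3 times the background gave 6 of 15248 genes tested, with 1 of 9 members and 1 of 42 pathway genes. No filter on low counts gave 2849 of 52922 (2218 lower, 631 higher), with 6 of 10 members and 20 of 56 pathway genes. DESeq2 gave 501 of 10648, with 1 of 8 members and 4 of 34 pathway genes. Leaving out 1 library gave 0 to 3 calls and 0 to 1 members. The count over all genes, 1813, became 2973 with RLE factors, 4523 with library totals and 5660 with DESeq2, and 1 to 5409 with 1 library left out, alternatives chosen after seeing the data. Deviations of same-numbered libraries had correlations of -0.18, 0.14 and -0.37, and those of differently numbered libraries -0.195 to 0.323. With 3 libraries per group, these values cannot decide whether the numbers pair libraries. With a replicate block the main comparison still called 0 genes (Scd2 -1.41, edgeR adjusted p 0.235), and all genes gave 146 calls, fewer than without it. Signs turned for some small values. Over all genes Acaca had -0.19, Fads1 -0.45 and Fads2 -0.35, without a filter -0.23, -0.48 and -0.39, and Fads1 had -0.042 at 3 times the background. With 1 library left out, Fasn ranged from -0.36 to 0.0094, Fads2 from -0.038 to 0.38, and the log2 ratios of Fads1 to Fads2 from -0.28 to 0.075, Elovl6 to Elovl5 from -0.047 to 0.16 and Srebf1 to Srebf2 from -0.38 to 0.027. The Elovl6 to Elovl5 ratio was -0.11 with the background subtracted. The cause of these changes was not tested. Background limits what can be said of Scd1 and Acaca.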
